A study of Gallus gallus with 6 samples.

Results

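Retinoic acid is made from vitamin A in the embryo, acts on cells nearby through nuclear receptors and is then broken down, and 10 chicken genes of this route were examined in brains of female and male chick embryos. They are the synthesising dehydrogenases ALDH1A1, ALDH1A2 and ALDH1A3, the degrading cytochromes CYP26A1 and CYP26B1, the intracellular binding protein CRABP1, and the receptors RARA, RARB, RXRA and RXRG. A probe set was taken where the array's annotation gave a member as its only gene symbol, which found 18 probe sets for the 10 genes, of 27166 probe sets for 13008 genes that had 1 symbol. ALDH1A1 lies on the Z chromosome and the other members on autosomes, so ALDH1A1 was set beside the rest.

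The samples were 3 pools of female (ZW) and 3 pools of male (ZZ) brains at stage 29, which the labels give as 6 to 6.5 days of incubation. Each pool held 5 to 8 genetically sexed embryos and was put on 1 Affymetrix chicken array. No embryo was treated, and the strain and the limits of the dissection are not given in the labels. The values are RMA signals on the log2 scale, and every difference below is female minus male. Signals of different probe sets are not read as relative amounts of their transcripts. The sums of linear signal given for marker lists weigh the brightest probe sets most.

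Retinaldehyde dehydrogenases oxidise retinaldehyde to retinoic acid, which enters the nucleus, binds a RAR paired with an RXR on DNA and switches on target genes. The CYP26 enzymes oxidise retinoic acid to inactive forms, and they bound its range in the tissue. In the embryonic hindbrain and spinal cord retinoic acid is known for setting the expression limits of HOX genes, and RARB and CYP26A1 are themselves well known to be induced by it.

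The arrays matched their labels. HINTW, a gene of the female-specific W chromosome, had signals of 13.31, 13.09 and 13.19 in female pools, against 5.96, 5.16 and 4.63 in male pools. The neural genes STMN2 and FABP7 lay between 12.41 and 12.76 in all 6 pools, and each of the 10 neural markers listed was above the level of the array's viral probe sets. That level, the 95th percentile of the mean signals of the 689 viral or otherwise foreign probe sets, was 4.21, and a probe set under it is described as not above the viral level. The same percentile within each pool was 4.13, 4.20 and 4.14 in female pools, against 4.33, 4.23 and 4.29 in male pools. It was lower in every female pool than in any male pool. The neural list was not level between the sexes. All 10 of its genes were above 0 in the female minus male difference, where 45.5% of all genes were, with a median of 0.33. The pools of the sexes did not overlap for 5 of the 10, against 19.1% of all genes by their brightest probe set. Of the 10, 1 was called, where 0.923% of all genes were. This was NES, the neural progenitor filament nestin (0.55, SE 0.08, limma adjusted p = 0.0380), and it was not called when any 1 pool was left out. The summed linear signal of the 10 was 20895.8 to 23274.6 in female pools and 18371.5 to 20287.5 in male pools. The 5 blood markers on the array, of 13 listed, summed to 6926.3 to 11268.5 in female pools and 9850.95 to 14140.9 in male pools. Their brightest, HBAD and HBZ, differed by -0.16 (SE 0.17) and -0.94 (SE 0.25), and none of the 5 was called. The part of blood in the members' values was not tested. Over the whole array 1 of the 6 pools stood apart. Male pool 3 had 213 probe sets more than 1 log2 unit from the mean of the other 5, 181 of them lower, against 76 to 106 in each other pool. Female pool 3, with 86 such probe sets, was within that range, but it was low in some HOX genes, as described below beside RARB.

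No sex difference was called for any of the 18 member probe sets with the limma p adjusted by Benjamini-Hochberg over 37693 chicken probe sets (threshold 0.05), where 0.554% of all probe sets passed. None had an unadjusted p under 0.05 either, where 10.4% of all did. Their adjusted p ran from 0.528 to 0.995. The differences ranged from -0.23 for CRABP1 to 0.39 for the brightest probe set of ALDH1A2, with 7 above 0 and 11 below, and their median was -0.04, against -0.01 over all chicken probe sets. A call would have needed a difference of 0.42 to 1.46 log2 units, depending on the spread of the probe set. The 95% intervals of all 18 differences lay between -0.60 and 0.83. In 2 of the 18 probe sets (11.1%) the female and male pools did not overlap, against 16.2% of all probe sets. With 3 pools a sex, a smaller difference was not detectable, and a missed threshold does not show that the sexes were alike.

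**Figure D1:**
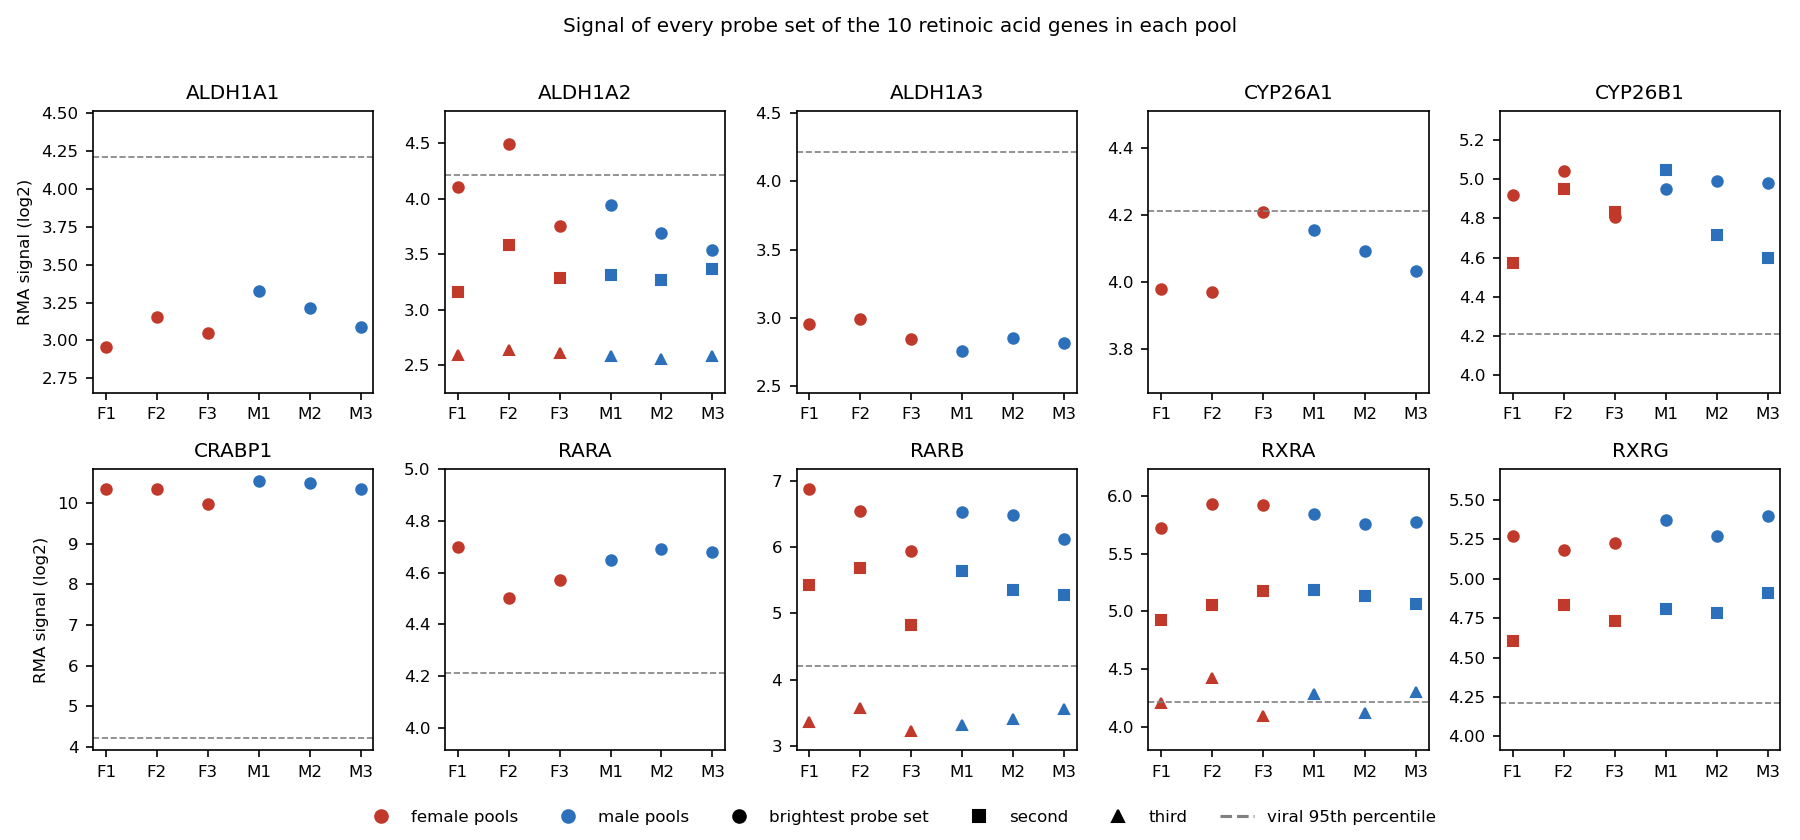
RMA signal (log2) of every probe set of the 10 genes in each female pool (F1 to F3) and male pool (M1 to M3), 1 panel a gene with its own axis; the dashed line is the viral 95th percentile, 4.21. Probe sets of ALDH1A1 and ALDH1A3 lie under the line in every pool, CRABP1 lies far above it, and both brighter probe sets of RARB are lowest in F3.

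Of the 18 probe sets 11 had a mean at or above the viral level, in 6 of the 10 genes, and 10 were above it in every pool. These were CRABP1, RARA, CYP26B1 (both probe sets), RARB (2 of 3), RXRA (all 3) and RXRG (both). The 3 dehydrogenases and CYP26A1 had no probe set whose mean reached it. In pools of brain tissue a transcript held by few cells is diluted, and fewer cells and less RNA per cell cannot be told apart.

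ALDH1A1, the Z-linked dehydrogenase, which is best known from dorsal retina and midbrain dopaminergic neurons in vertebrates, has 1 probe set. Its signals were 2.96, 3.15 and 3.05 in female pools, against 3.32, 3.22 and 3.09 in male pools. The female values lay mostly lower, with female pool 2 above male pool 3, so the sexes overlapped, and no pool reached the viral level. The difference was -0.16 (SE 0.09, 95% interval -0.37 to 0.05, limma adjusted p = 0.603), between 2 levels that are both no higher than those of viral probe sets. The viral percentile within each pool was also lower in females, and its part in this difference was not tested.

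Males carry an extra copy of each Z gene, and ALDH1A1 was therefore set beside the rest of its chromosome. Over 377 other Z genes that reached the array's median signal, with the brightest probe set for each gene, the median difference was -0.36, 323 of them were below 0 and 103 were called, all lower in females. Over 144 other Z genes under the viral level, as ALDH1A1 is, the median was -0.05, none was called, and 25 lay lower than ALDH1A1. The ALDH1A1 signal minus the mean of the brighter Z genes averaged -4.13 ± 0.13 in female and -4.39 ± 0.09 in male pools (SD, n = 3 each), a difference of 0.26 (exact permutation p = 0.1, two-sided, the smallest that 3 against 3 allow). The mean of those Z genes was itself lower in females, by a difference of -0.42, so the subtraction gives a positive value for a probe set at background that does not follow them, and no reading of ALDH1A1 rests on this test. Minus the mean of the 144 dim Z genes, a comparison added after seeing the data, the difference was -0.09 (exact permutation p = 0.5, two-sided). Whether ALDH1A1 differs from other Z genes cannot be read from this probe set.

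The Z genes next to ALDH1A1 on the array, ordered by the RefSeq annotation of GRCg7b, included 1 of 6 whose difference was called, where 17.2% of the 604 other Z genes were. On one side were GDA, a guanine deaminase, with a difference of -0.12 (SE 0.08), ZFAND5, a zinc finger gene, and TMC1, a mechanotransduction channel gene of hair cells, with -0.02 (SE 0.10). ZFAND5 had a mean of 10.27 ± 0.02 in female and 11.04 ± 0.07 in male pools (SD, n = 3 each) and was lower in females by a called difference of -0.76 (SE 0.07, limma adjusted p = 0.00391). On the other side ANXA1, an annexin, gave -0.14 (SE 0.10), the orphan nuclear receptor RORB -0.48 (SE 0.20) and the methyltransferase gene CARNMT1 -0.35 (SE 0.08), and none of these 3 passed. GDA and RORB, like ALDH1A1, had means under the viral level.

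**Figure D2:**
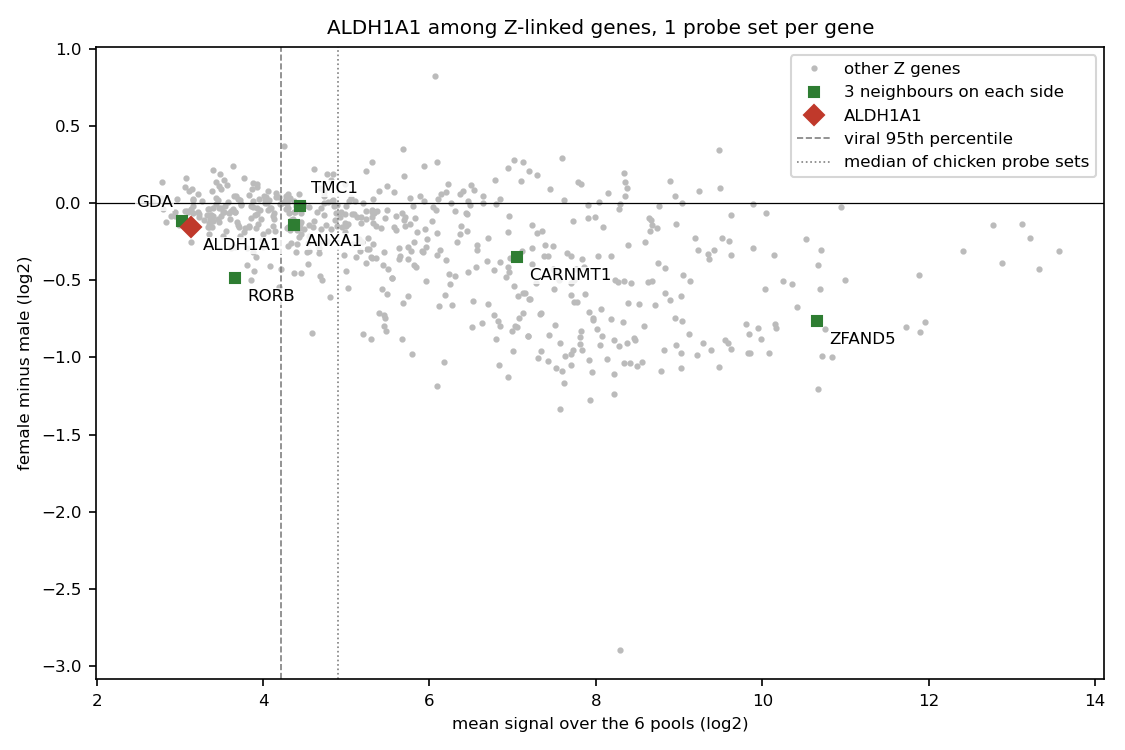
Female minus male difference (log2) against mean signal over the 6 pools (log2) for 605 Z genes, 1 probe set each; the vertical lines are the viral 95th percentile (4.21) and the median of chicken probe sets (4.91). ALDH1A1 (diamond, -0.16) sits among dim Z genes with small differences, while ZFAND5, a bright neighbour (square), lies at -0.76.

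ALDH1A2, the main source of retinoic acid in the trunk of the vertebrate embryo and also expressed in meninges and spinal motor neurons, has 3 probe sets. Its brightest had signals of 4.10, 4.49 and 3.75 in female pools, against 3.94, 3.69 and 3.54 in male pools. Female pool 2 was the highest and the only pool above the viral level, and female pool 3 lay among the males. The difference of 0.39 (SE 0.19, limma adjusted p = 0.528) was the widest of the members and did not pass. It was 0.57 (SE 0.16, limma adjusted p = 0.405) without female pool 3 and 0.20 (SE 0.16, limma adjusted p = 0.802) without female pool 2. The other 2 probe sets gave 0.03 and 0.04 at means of 3.33 and 2.59. The dimmest of the 3 was above in every female pool, by a gap of only 0.012 between the sexes. The 3 probe sets were lowest in 3 different pools.

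Markers of tissues that make ALDH1A2 were read from the same arrays. Of 13 markers of meninges and mesenchyme 5 were under the viral level, FOXC2, LUM, PDGFRA, TBX18 and TWIST1. The summed linear signal of the 13 was 547 to 577 in female pools and 542 to 576 in male pools, and the brightest, COL1A2 and COL3A1, differed by 0.07 and -0.01. COL1A2, PDGFRB and COL1A1 had higher means in females, the other markers had lower ones, and none was called. PRRX1 (-0.26, SE 0.09) and the Z-linked FOXD1 (-0.15, SE 0.08) were lower in every female pool than in any male pool. The 7 motor neuron markers on the array, of 9 listed, summed to 505 to 636 in female pools and 580 to 660 in male pools, the lowest being female pool 3. Of these ISL2, MNX1 and SLC5A7 were under the viral level. The brightest, the homeodomain gene ISL1, had 8.32, 8.34 and 8.13 in female pools, against 8.38, 8.09 and 8.43 in male pools, and female pool 3 lay within the male range. ISL1 is Z-linked, as ALDH1A1 is, so males carry an extra copy of it. SLC18A3, the vesicular acetylcholine transporter, had 7.62, 7.61 and 6.82 in female pools, against 7.67, 7.63 and 7.58 in male pools, with female pool 3 the lowest. CHAT, the enzyme that makes acetylcholine, had 5.26, 5.27 and 5.34 in female pools, against 5.36, 5.13 and 5.48 in male pools, so the markers did not move as one in female pool 3. The part of these cells in the ALDH1A2 values was not tested.

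ALDH1A3, the dehydrogenase known from ventral retina, has 1 probe set, whose annotation suffix marks probes that can match more than 1 transcript. Its signals were 2.96, 2.99 and 2.85 in female pools, against 2.76, 2.85 and 2.82 in male pools, all under the viral level and overlapping only in female pool 3 and male pool 2. The difference was 0.12 (SE 0.07, 95% interval -0.05 to 0.30, limma adjusted p = 0.618). Of 13 eye and pigment markers on the array, out of 16 listed, 6 were under the viral level, among them the pigment cell genes TYR, TYRP1 and DCT. The list summed to 610 to 691 in female pools and 673 to 730 in male pools, and its brightest genes, the crystallins CRYBB2 and CRYAB, differed by -0.15 and 0.19 without passing. CRYAB, TYRP1, ASL1 and DCT had higher means in females, the other markers had lower ones, and none was called. The widest difference was that of BFSP1, -0.35 (SE 0.19). The sexes did not overlap for MITF (-0.11, SE 0.07) or for ASL1 (0.17, SE 0.10), which was under the viral level. For ALDH1A1, the 8 midbrain dopaminergic markers on the array summed to 379 to 404 in female pools and 359 to 407 in male pools. Their brightest, EN1 and NR4A2, differed by -0.07 and 0.26, and LMX1B, PITX3 and SLC18A2 were under the viral level. The widest difference was that of DDC, -0.29 (SE 0.08, limma adjusted p = 0.256), with every female pool below every male pool. FOXA2 and TH, the others above the viral level, differed by -0.05 and 0.01. The part of eye tissue or of dopaminergic neurons in the members' values was not tested.

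The degrading enzymes gave small differences. CYP26A1 had signals of 3.98, 3.97 and 4.21 in female pools, against 4.16, 4.09 and 4.03 in male pools. Female pool 3 was the highest, at the edge of the viral level and above the 4.14 of its own pool. The difference was -0.04 (SE 0.09, limma adjusted p = 0.909), or -0.12 (SE 0.08) without that pool. CYP26B1, which is known to clear retinoic acid in the hindbrain, was above the viral level in every pool in both of its probe sets. The brighter had 4.92, 5.04 and 4.81 in female pools, against 4.95, 4.99 and 4.98 in male pools. Its male pools lay within the female range, and the difference was -0.05 (SE 0.08, 95% interval -0.24 to 0.14). Without female pool 3, its lowest, the difference was 0.0067 (SE 0.08). The other CYP26B1 probe set differed by -0.00 (SE 0.14) and had its extremes in other pools, female pool 1 at 4.57 and male pool 1 at 5.05.

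CRABP1, which holds retinoic acid in the cytoplasm and is known from neural crest and early hindbrain neurons, had the lowest difference of the members. Its signals were 10.35, 10.33 and 9.98 in female pools, against 10.53, 10.49 and 10.35 in male pools. All female pools lay below all male pools, but the nearest of each sex were 0.0013 apart. The means were 10.22 ± 0.21 in female and 10.46 ± 0.09 in male pools (SD, n = 3 each), a difference of -0.23 (SE 0.11, 95% interval -0.50 to 0.03, limma adjusted p = 0.536). Without female pool 3, the lowest of the 6, it was -0.11 (SE 0.09, limma adjusted p = 0.744).

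**Figure D3:**
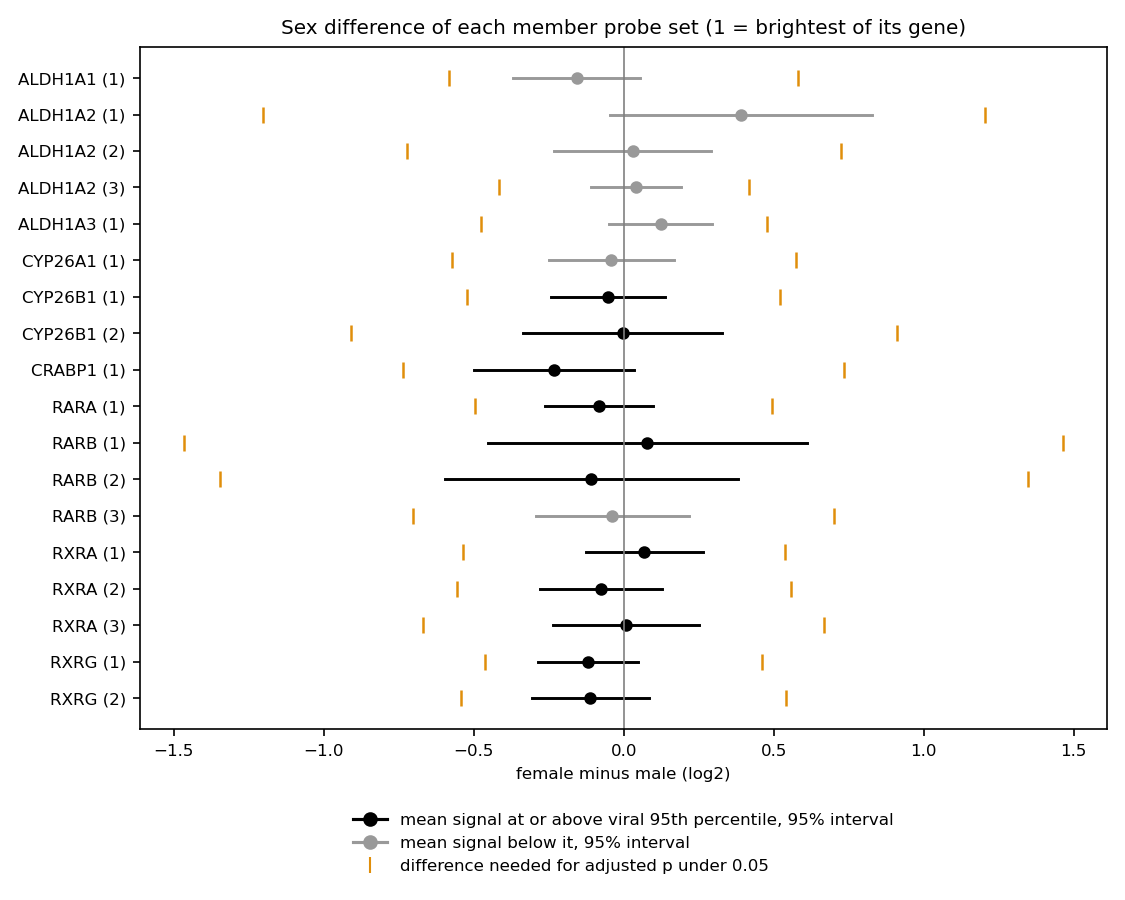
Female minus male difference (log2) of the 18 member probe sets with its 95% interval from the limma fit; orange marks show the difference each would have needed for an adjusted p under 0.05. Every interval holds 0, the widest belong to ALDH1A2 and RARB, and no point reaches its mark.

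Among the receptors, RARA, the most widely expressed RAR, had 4.70, 4.50 and 4.57 in female pools, against 4.65, 4.69 and 4.68 in male pools. The male pools lay within the female range, and the difference was -0.08 (SE 0.08, limma adjusted p = 0.766). RXRG, the RXR of narrower expression, had 5.27, 5.18 and 5.22 in female pools, against 5.37, 5.27 and 5.39 in male pools in its brighter probe set. The difference was -0.12 (SE 0.07, 95% interval -0.29 to 0.05), and its other probe set gave -0.11 (SE 0.08). The agreement in sign of the 2 RXRG probe sets comes from the same 6 RNA pools and is no replicate.

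RXRA, a common partner of the RARs, has 3 probe sets that gave differences of 0.07, -0.08 and 0.01 (SE 0.08 to 0.10). The third, at a mean of 4.24, was above the viral level in only 3 of the 6 pools. Its annotation suffix, as for ALDH1A3, marks probes that can match more than 1 transcript. The brightest had 5.72, 5.93 and 5.92 in female pools, against 5.85, 5.75 and 5.77 in male pools. Its male pools lay within the female range, and the second probe set pointed the other way, so no direction can be given for RXRA. Without female pool 3 the 3 differences were 0.04, -0.14 and 0.08. Its ranges over the 6 pools, 0.21 to 0.33, were at or below the median range of all chicken probe sets, 0.33.

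RARB had some of the widest ranges over the pools in its brighter 2 probe sets. This receptor is induced by retinoic acid and, in the mouse, is expressed in the caudal hindbrain and spinal cord. Its brightest probe set had 6.87, 6.54 and 5.94 in female pools, against 6.52, 6.48 and 6.11 in male pools. Its second had 5.42, 5.68 and 4.83 in female pools, against 5.64, 5.35 and 5.27 in male pools. Female pool 3 was the lowest of the 6 in both, and also in the third probe set, whose mean of 3.40 was under the viral level. The sex differences of the 3 probe sets were 0.08 (SE 0.23), -0.11 (SE 0.21) and -0.04 (SE 0.11), with limma adjusted p of 0.934, 0.897 and 0.935. The ranges of the brighter 2 over the pools, 0.93 and 0.85, were wider than those of 95.8% and 94.4% of chicken probe sets, and that of the third, 0.33, was near their median. Male pool 3 was the lowest pool after female pool 3 in the brighter 2, and without it the 3 differences were -0.05 (SE 0.25), -0.18 (SE 0.24) and 0.03 (SE 0.12).

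Female pool 3 lay below the mean of the other 5 pools by -0.57 in the brightest RARB probe set and by -0.64 in the second. Only 0.66% and 0.45% of chicken probe sets were as low or lower in that pool by the same measure. CRABP1 was at -0.43 and the brightest ALDH1A2 probe set at -0.20, while CYP26A1 was at 0.16. In all, female pool 3 was the lowest pool in 6 of 18 member probe sets (33.3%), and in 15.3% of all chicken probe sets. The 3 RARB probe sets, read from the same RNA, are among the 6. By the brightest probe set of each gene, female pool 3 was the lowest for 3 of 10 members, against 15.6% of all genes. Without that pool the RARB differences turned or grew to 0.34 (SE 0.16, limma adjusted p = 0.576), 0.13 (SE 0.14) and 0.04 (SE 0.11), and none passed.

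Some HOX genes were low in the same pool, and others were not. HOXB3 had 7.62, 7.62 and 3.75 in female pools, against 7.39, 7.29 and 7.19 in male pools. HOXA3 had 7.06, 7.20 and 3.25 in female pools, against 6.99, 6.67 and 6.47 in male pools. Both were under the viral level in female pool 3 alone. These values are from the brighter of 2 probe sets for each gene. The other gave a sex difference of the opposite sign, which does not tell whether it was low in female pool 3. Of 11 HOX genes in the list of retinoic acid targets, 6 lay more than 0.5 below the mean of the other 5 pools there, where 1.35% of all genes did: HOXA3 (-3.63), HOXB3 (-3.67), HOXD4 (-2.46), HOXB5 (-1.60), HOXA4 (-1.30) and HOXA5 (-1.06). These last 4 were named after their values were seen. Of the other 5, HOXA2, HOXB1, HOXB4 and HOXB8 were under the viral level, and HOXB2 was within 0.1 of the mean of the other pools. Over the 20 hindbrain and spinal markers on the array, of 28 listed, the summed linear signal was 397 to 926 in female pools and 721 to 848 in male pools, with female pool 3 at 397 and 10 of the 20 under the viral level. In that list HOXA10, HOXB6 and HOXB7 had means above the viral level and did not fall in female pool 3. They stood there at 0.13, 0.15 and -0.10 from the mean of the other 5 pools, and were named after their values were seen. The part of hindbrain and cord tissue in the RARB and CRABP1 values was not tested.

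**Figure D4:**
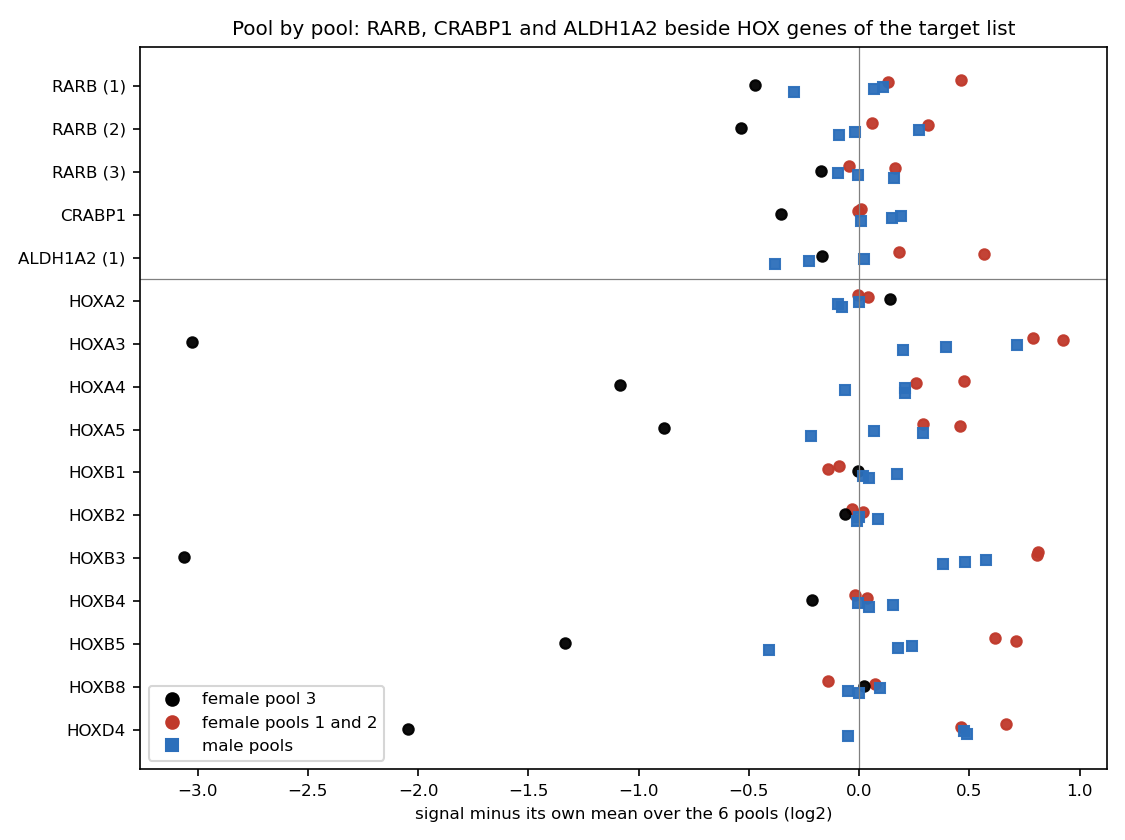
Signal minus its own mean over the 6 pools (log2) for the RARB probe sets, CRABP1, the brightest ALDH1A2 probe set and 11 HOX genes; each point is 1 pool, female pool 3 in black. The black point is the lowest for RARB and CRABP1 and lies far to the left for 6 HOX genes, HOXA3 and HOXB3 most of all.

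Genes whose pool pattern was most like a member's were ranked by the root mean square difference of mean-centred log2 signals over the 6 pools, among 9183 genes that reached the median signal. For ALDH1A1 the nearest were CASP9 (0.030), SYT15, TMEM37, TOP1 and LOC415478 (0.041). For ALDH1A2, the member with the widest range over the pools, they were SMPD3 (0.090), MYO5A, FGD6, LRRC49 and PAX2 (0.11), each highest in female pool 2. For RARB, added after its values were seen, they were GID8 (0.068), EFCAB5, ALDH1L2, SMARCAD1 and FANCL (0.12), each highest in female pool 1. With 6 pools and this many genes some likeness is always found, and it is given as a description.

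Other genes of the route were taken from 4 lists, 72 genes in all, of which 53 were matched by symbol. None of the 53 passed at an adjusted p under 0.05 by its brightest probe set, against 0.923% of all 13008 genes, and the smallest adjusted p was 0.335 (limma). An unadjusted p under 0.05 was found for 10 of the 53 (18.9%), against 12.7% of all genes. The pools of the sexes did not overlap for 10 of the 53, against 19.1% of all genes. The median difference of the 53 was -0.02, as over all genes.

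Of the genes that carry and take up retinoids, 4 of 7 were above 0 and the median was 0.02. RBP5, a cellular retinol-binding protein, had 8.76, 8.59 and 8.83 in female pools, against 8.93, 8.97 and 9.00 in male pools. Every female pool lay below every male pool, and the difference of -0.24 (SE 0.08, limma adjusted p = 0.377) did not pass. The vitamin A receptor STRA6 gave 0.24 (SE 0.11), the binding protein RBP7, at a mean under the viral level, 0.23 (SE 0.11) and FABP5 0.22 (SE 0.16).

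Of the other retinoid enzymes 3 of 12 were above 0, with a median of -0.03. The retinol dehydrogenase RDH14 had 5.87, 5.37 and 5.71 in female pools, against 5.39, 5.18 and 5.19 in male pools. Its pools overlapped through female pool 2, and its difference of 0.40 (SE 0.14) had a limma adjusted p of 0.367. ALDH8A1, an aldehyde dehydrogenase that can oxidise 9-cis-retinal, gave -0.12 (SE 0.07) at a mean under the viral level, ADH1C -0.15 (SE 0.10) and the retinal reductase RDH11 -0.11 (SE 0.09).

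The receptor cofactors were mostly on the female side. Of 11 genes 9 were above 0, where 45.5% of all genes were, and 6 had an unadjusted p under 0.05, where 12.7% were. Their median difference was 0.27, against -0.02 over all genes, and none passed after adjustment. With 1 pool left out, 8 to 10 were above 0 and 3 or 4 had an unadjusted p under 0.05, 3 of them without female pool 2 or without female pool 3. EP300, NCOA1 and NCOA2, named after their values were seen, had 1 of 3, 1 of 2 and 2 of 6 probe sets of the opposite sign to the brightest. The 10 neural markers given above were also higher in females, with a median of 0.33, and their part in the cofactor values was not tested. TRIM24, a ligand-dependent cofactor of nuclear receptors, had 6.58, 6.85 and 6.63 in female pools, against 6.42, 6.42 and 6.39 in male pools. Its groups did not overlap, and the difference was 0.27 (SE 0.09, limma adjusted p = 0.335). MED1, the mediator subunit that nuclear receptors bind, differed by 0.40 (SE 0.13) and the corepressor NCOR1 by 0.31 (SE 0.12). The acetyltransferase KAT2B differed by 0.48 (SE 0.17), with a mean of 4.64 in female pools and of 4.16, under the viral level, in male pools. These cofactors act with many receptors and factors other than RAR and RXR. The list holds no RARG or RXRB, which had no match by symbol.

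Of the known targets of retinoic acid 7 of 23 were above 0, with a median of -0.04. MEIS2, a homeodomain partner of HOX proteins, had 6.79, 7.01 and 6.68 in female pools, against 6.55, 6.66 and 6.36 in male pools. The groups did not overlap, and the difference was 0.30 (SE 0.11, limma adjusted p = 0.415). The orphan receptor NR2F2 gave 0.26 (SE 0.11), PAX6, a regionalising factor of forebrain and hindbrain, 0.17 (SE 0.09) and HOXB1, at a mean under the viral level, -0.16 (SE 0.08). Of the 11 HOX genes in this list 10 were below 0, with a median of -0.13, while of the other 12 targets 6 were below 0, with a median of 0.01. The HOX count rests on female pool 3, without which 7 of the 11 were above 0 and 4 below, with a median of 0.25. The widest HOX difference, -0.96 (SE 0.94, limma adjusted p = 0.776) for HOXB3, was 0.33 (SE 0.09, limma adjusted p = 0.405) without that pool.

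**Figure D5:**
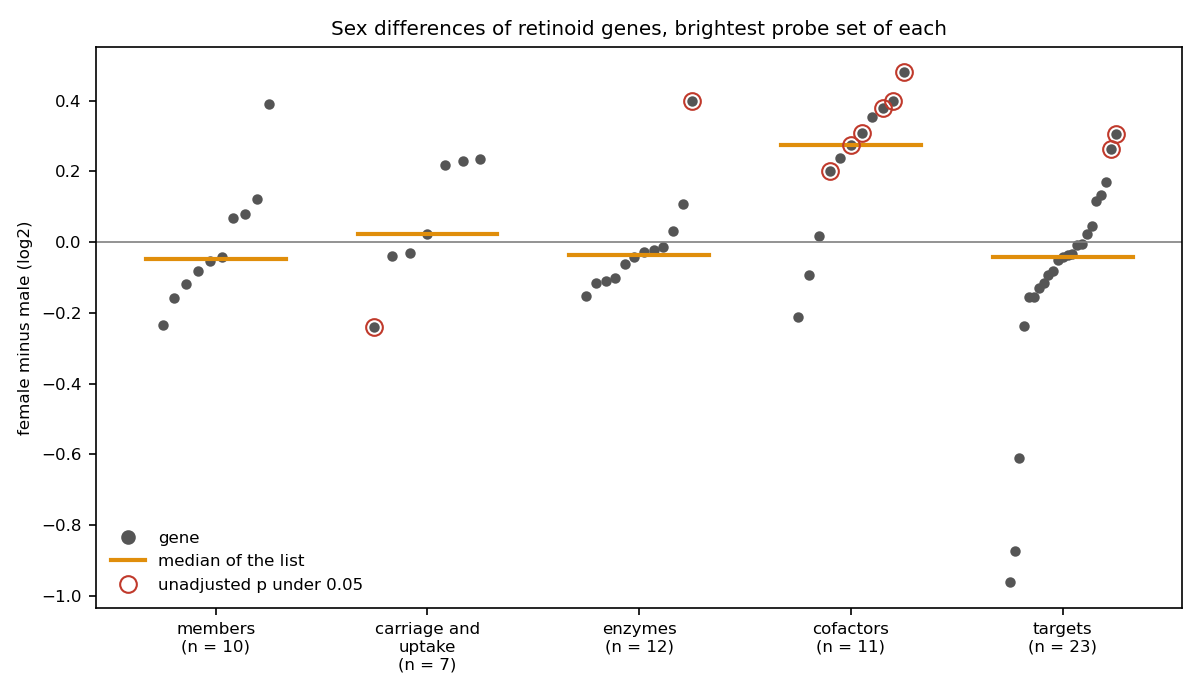
Female minus male difference (log2) of the brightest probe set of each gene, for the 10 members and the 4 lists of other retinoid genes; bars are list medians and red rings mark an unadjusted p under 0.05. The members spread around 0 with no ring, and the cofactors have 6 rings and a median of 0.27.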

How the data were processed

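Brain RNA of 3 female and 3 male pools was labelled from oligo(dT) primers, which favours the 3' ends of transcripts, per the labels' protocols. The deposited values are log2 signals, 1 for each probe set and array, made by the authors with affy's RMA, per the submitters' processing notes. Tool versions and genome build were not given in the sources used here. The RMA procedure equalises the arrays and gives no detection calls. That they are log2 was inferred from their range, 2.28 to 14.08.

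Of 38535 probe sets, 153 controls and 689 viral or other non-chicken ones were left out, and 37693 were fitted without a filter in limma 3.58.1 (R 4.3.3; lmFit, eBayes, sex as the only term, two-sided, Benjamini-Hochberg, threshold 0.05). SE is limma's, and SD is over 3 pools. The p-values measure the spread between pools of embryos, and precision is limited by the number of arrays. A gene in a list is its brightest probe set. Z membership and gene order come from RefSeq GRCg7b, matched through gene identifiers for 26851 of 27166 probe sets. Members and lists were chosen with earlier results of these data known. All member probe sets were named, as were the 4 genes of smallest p in each of 4 retinoid lists, the 2 brightest in the marker lists used, 3 Z neighbours on each side of ALDH1A1 and the 5 genes nearest in pattern. NES, CHAT, EP300, NCOA1, NCOA2, HOXA4, HOXA5, HOXA10, HOXB5, HOXB6, HOXB7 and HOXD4 were named after their values were seen. So were ASL1, BFSP1, COL1A1, DDC, FOXA2, FOXD1, MITF, PDGFRB, PRRX1 and TH. Alternatives were the replicate number as a block, other priors, array weights, a filter at the viral level, other scalings and leaving out each pool.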

Additional observations from a re-analysis of the deposited data

How the results depend on the processing

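No member probe set and no gene of the 4 retinoid lists was called in any of the 12 alternatives (limma). The lowest adjusted p was 0.316 for a member, with the replicate number as a block, and 0.0849 for a listed gene, without male pool 1. Calls over all chicken probe sets numbered 209, between 113 and 161 when 1 pool was left out (leaving out female pool 2 gave 113, female pool 3 gave 129 and male pool 1 gave 130), and 200 to 261 otherwise. Same-numbered pools deviated together with correlations of 0.01, 0.15 and 0.32. Female pools 2 and 3 were each closest to the male pool of their own number, and female pool 1 to male pool 2 (0.11). The numbers were not read as pairs, and whether same-numbered pools were handled together was not tested. With the replicate block 245 probe sets were called, 0 of them members. Of the 18 member probe sets 2 then had an unadjusted limma p under 0.05, as did 4869 of all 37693. Leaving out female pool 3 gave 1 such member probe set, and leaving out male pool 1 also gave 1.

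Of 18 member differences 10 kept their sign in every alternative that held them, and 8 changed it in 1 or more, each at an adjusted p of 0.808 or more there. With 1 pool left out, the second ALDH1A2 probe set ran from -0.089 to 0.12, CYP26A1 from -0.12 to 0.00062, the CYP26B1 probe sets from -0.11 to 0.0067 and from -0.10 to 0.13, the RARB probe sets from -0.13 to 0.34, -0.29 to 0.13 and -0.13 to 0.039, and the third RXRA probe set from -0.084 to 0.080. The second CYP26B1 probe set was 0.0024 after quantile normalization, and the third RXRA probe set -0.0085 with array weights and -0.0030 after centring. The cause was not tested. ALDH1A1 relative to Z genes was 0.14 to 0.33 against bright or all Z genes, and turned to -0.092 against the Z genes under the viral level, an alternative chosen after seeing the data. It has 1 probe set, so no other could be tried. Signal near the viral level limits what ALDH1A1, ALDH1A2, ALDH1A3, CYP26A1 and the third RXRA probe set can show.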
